A study of Homo sapiens with 6 samples.

Results

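The 10 genes described here belong to canonical Wnt signalling, and comprise 5 feedback targets (AXIN2, NKD1, RNF43, ZNRF3 and LGR5), 3 transcription factors of the TCF/LEF family (LEF1, TCF7L1 and TCF7L2) and 2 cytoplasmic signal carriers (GSK3B and DVL1). They were taken by name, and every probe set annotated to exactly 1 of these genes was used, which gave 28 probe sets for the 10 genes, out of 41091 probe sets with 1 gene and 54613 non-control probe sets in all. The data are 6 arrays of the Affymetrix HG-U133 Plus type, hybridised with RNA of SKOV3.ip1, a human ovarian cancer line derived from SKOV3, in derivatives stably transfected with a vector for a mutant PEA-15, a small protein that binds the kinase ERK and the death adaptor FADD. In the S116A line (3 arrays) Ser116 of PEA-15 was replaced by alanine and cannot be phosphorylated. In the S116D line (3 arrays) aspartic acid mimics phosphorylation, and the sources differ on which residues carry it: the titles name Ser116, the sample characteristics Ser104 with Ser116, and the treatment text Ser16. All arrays thus came from transfected cells, and cells without a mutant PEA-15 vector were not analysed here. The labels do not say whether a line was 1 clone or a pool, whether the cells kept their own PEA-15, or whether the 3 arrays of a line were separate cultures, so p-values measure only how these arrays vary, and that variation may be technical. Differences are S116D minus S116A in the deposited signal, whose log base the sources used here do not give and which was read as log2 from its range, and a difference is said to pass at a limma adjusted p under 0.05 over all 54613 probe sets.

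Without a Wnt ligand, β-catenin is phosphorylated by GSK3B inside a complex built on axin and is then degraded. A ligand acts through Dishevelled proteins such as DVL1 to stop this, and β-catenin then joins TCF/LEF factors on DNA, where corepressors of the TLE family are otherwise bound. Several of the genes switched on in this way damp the signal again: AXIN2 is an axin, NKD1 binds Dishevelled, and RNF43 and ZNRF3 are membrane ubiquitin ligases that remove Wnt receptors, whereas LGR5 is a receptor for R-spondins, which hold these ligases off.

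The arrays correlated at r between 0.9951 and 0.9979 within a line and between 0.9866 and 0.9902 across lines. Of all 54613 probe sets, 8.55% passed (4.36% higher and 4.19% lower in S116D), or 4672 probe sets, and when 1 array was left out this number fell to 2775 (S116A 1), 2986 (S116A 2), 2608 (S116D 2) or 2772 (S116D 3). Apart from the lines, the arrays parted on the second principal component (20.3% of the variance): S116A 1 and 2 together with S116D 1 (the first set of arrays) lay opposite S116A 3, S116D 2 and S116D 3 (the second set), and no label corresponds to it. The 3′ minus 5′ signal of the GAPDH control probe sets (log2), a sign of RNA quality, was 0.726 to 0.7932 in the first set and 0.6526 to 0.7083 in the second, while that of ACTB overlapped (2.33 to 2.44 and 2.27 to 2.47). Of the ovarian lineage markers, on their brightest probe sets, PAX8 read 12.77 in S116A and 12.82 in S116D and WT1 9.51 and 9.44, whereas MUC16, which encodes CA125, was below the array median at 6.72 and 6.59. ERBB2, known to be amplified in SKOV3, read 12.24 and 12.63. Epithelial markers fell on 7 of 11 probe sets (63.6%, against 4.19% of all probe sets). The mean log2 signal over the list was 9.95 to 10.26 in S116A and 9.21 to 9.40 in S116D. No probe set passed among 7 for leukocyte, 18 for fibroblast and 8 for endothelial markers. Whether the epithelial shift has a part in the results below was not tested.

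Of the 28 probe sets, 3 passed, all lower in S116D, a share of 10.7% against the 8.55% of all probe sets, or, for falls alone, against 4.19%. They belonged to GSK3B, with 2 probe sets, and DVL1, with 1. None of the 11 probe sets of the feedback targets and none of the 11 of the TCF/LEF factors passed by limma, and 1 in each group had an unadjusted p under 0.05, against 19.7% of all probe sets. S116A and S116D arrays were fully separate on 5 of the 28 probe sets (17.9%), against 24.0% of all. The median difference over the 28 probe sets was -0.04, against 0.003 over all probe sets. Counting both directions, the share of the members that passed lay near that of the whole array, and the 3 that passed were among the 6 probe sets of the cytoplasmic carriers. Of the 28 probe sets, 17 lay above the median signal. In a fit on such probe sets alone, 3 of these 17 passed, against 4423 of 27306 in all.

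**Figure D1:**
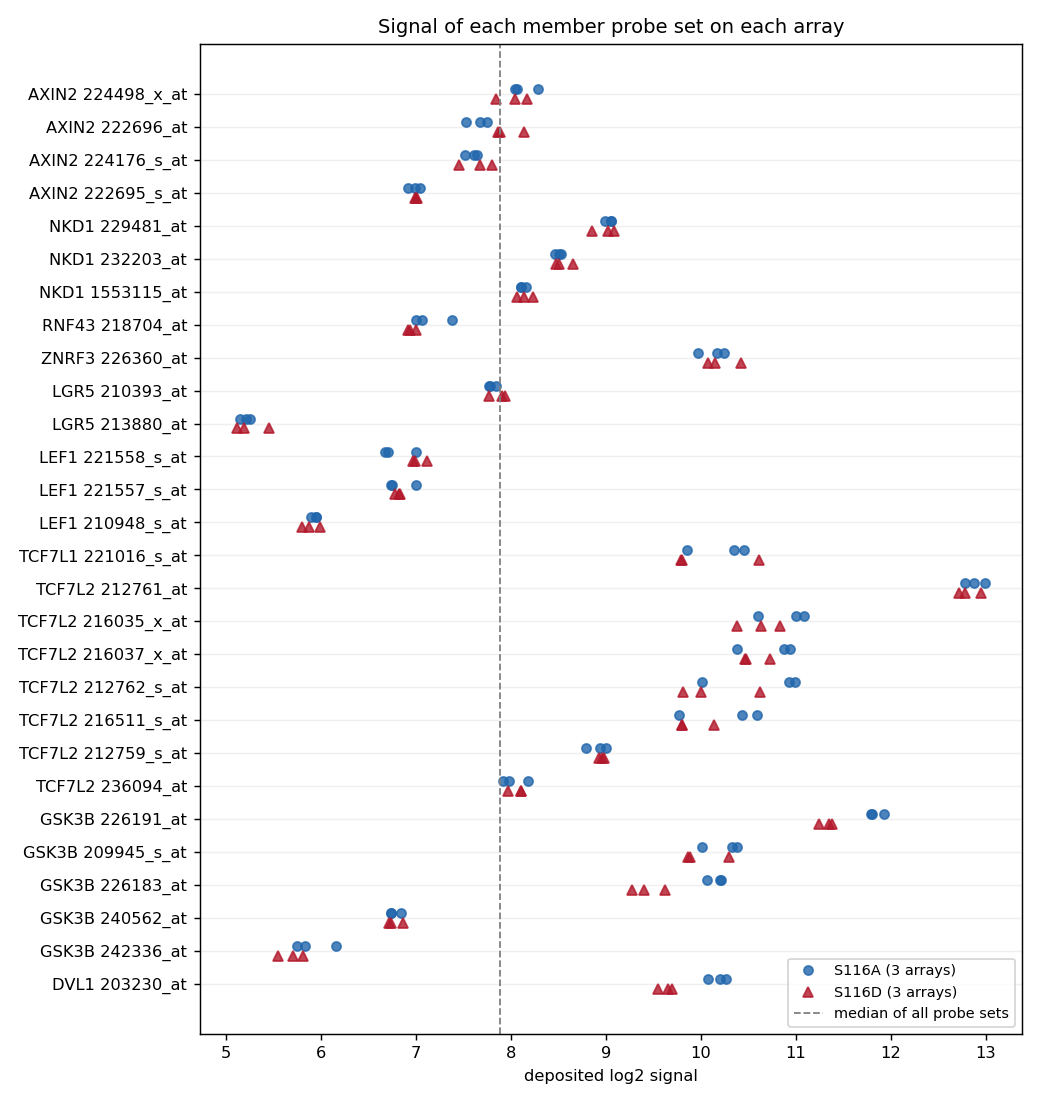
Deposited log2 signal (x axis) of the 28 probe sets of the 10 genes (y axis), with each of the 3 S116A arrays as a circle and each of the 3 S116D arrays as a triangle; the dashed line is the median of all probe sets, 7.89. The lines are clearly apart for GSK3B 226191_at, GSK3B 226183_at and DVL1 203230_at, whereas most probe sets of the feedback targets lie close together.

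**Figure D2:**
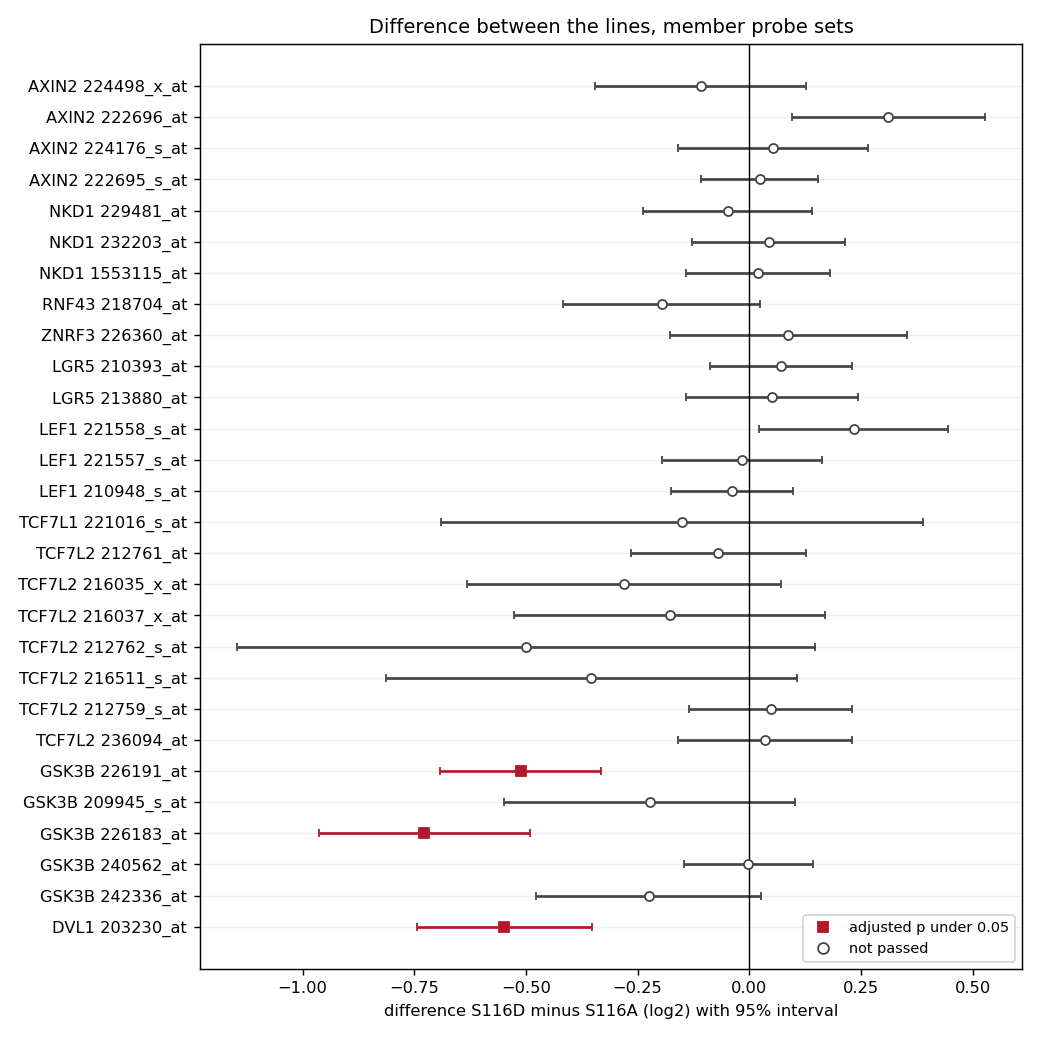
Difference S116D minus S116A on the log2 scale (x axis) with limma's 95% interval for the 28 probe sets (y axis). Filled squares mark the 3 probe sets with an adjusted p under 0.05, all with negative differences, and the intervals are widest for TCF7L1 and for TCF7L2 212762_s_at.

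GSK3B, the kinase that marks β-catenin for degradation and also acts on glycogen synthase, was lower in S116D on 2 of its 5 probe sets. The brightest, 226191_at, read 11.80, 11.92 and 11.78 on S116A 1 to 3, and 11.35, 11.38 and 11.24 on S116D 1 to 3. Every S116D array lay below every S116A array, a fall by 0.51 ± 0.08 (SE), or 1.43-fold, with a limma adjusted p of 0.0053. On 226183_at the S116A arrays read 10.21, 10.20 and 10.06, and the S116D arrays 9.62, 9.40 and 9.27. The lines again did not overlap, and the fall was 0.73 ± 0.10 (SE), or 1.66-fold (limma adjusted p = 0.0036). As the signal comes from whole cultures, fewer cells with the transcript and less transcript per cell cannot be told apart.

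The other 3 GSK3B probe sets did not pass. 209945_s_at read 10.38, 10.32 and 10.01 in S116A and 10.29, 9.88 and 9.87 in S116D, so that S116D 1 lay among the S116A arrays and S116A 3 nearer the S116D arrays (difference -0.22, 95% interval -0.55 to 0.10). The 2 remaining ones were dim. 242336_at differed by -0.23 (-0.48 to 0.03) from a mean of 5.91 in S116A, and 240562_at by -0.002 (-0.15 to 0.14) at 6.77 in both lines. A fit to the within-array difference between each probe set and the brightest of its gene asked whether the probe sets of a gene differ in their change, with 21316 such pairs on the array, of which 8.79% passed, and 18 among the members. The change of 240562_at differed from that of 226191_at by 0.51 ± 0.10 (SE; limma adjusted p = 0.017), a call that ended without S116A 1, S116A 2, S116D 2 or S116D 3 (limma adjusted p 0.059 to 0.077). For 226183_at, 209945_s_at and 242336_at the difference from the brightest did not pass (limma adjusted p 0.25, 0.26 and 0.33). In a fit with the set as a block, an alternative chosen after seeing the data, the change of 209945_s_at differed from that of the brightest by 0.40 (limma adjusted p = 0.018). The positions of the probes in the transcript were not used here.

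DVL1, a Dishevelled protein that carries the signal from Wnt receptors to the axin complex, had 1 probe set, 203230_at. It read 10.07, 10.27 and 10.20 in S116A against 9.65, 9.55 and 9.70 in S116D. The lines did not overlap, and DVL1 fell by 0.55 ± 0.09 (SE), or 1.46-fold (limma adjusted p = 0.0057). Its relatives did not pass, and are named, like the genes below that did not pass, after their values were seen. DVL2 differed by 0.08 and 0.14 on its 2 probe sets and DVL3 by -0.37 and -0.06. The brighter DVL3 probe set ranged from 10.63 to 11.55 over the arrays, with S116A 3 (10.84) and S116D 1 (11.36) each nearer the other line. GSK3A, the second GSK3 gene, differed by -0.09 and -0.02, neither of which passed.

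The 3 falls were of like size in both sets of arrays, which hold arrays of both lines. S116D 1 alone stands for S116D in the first set, and S116A 3 alone for S116A in the second. Each difference within a set thus rests on a single array of that line. In the first set GSK3B 226191_at differed by -0.51, GSK3B 226183_at by -0.59 and DVL1 by -0.52. In the second set the differences were -0.47, -0.73 and -0.58. All 3 also passed without any 1 of the 6 arrays and under every other alternative that kept the probe set, at limma adjusted p between 0.00025 and 0.034. In a search for the genes whose values over the 6 arrays lay closest to those of each, after centring on the mean, KLF12, GATA6-AS1 and NRP2 were nearest to GSK3B 226183_at, with a root mean square difference of 0.05 for each. For DVL1 these were EIF5A, MFSD8 and ERCC6L2-AS1, at 0.02 to 0.03. The spread of the members themselves about their means was 0.38 for GSK3B and 0.28 for DVL1, most of it the difference between the lines. The search thus selects genes with a fall of like size, which was 0.70 to 0.71 beside GSK3B and 0.55 to 0.56 beside DVL1.

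The windows upstream of the start sites are shown for the 2 genes that fell. Sequences are from RefSeq on GRCh38.p14, 250 bases up to the start site, 5′ to 3′ on the strand of the gene. The table matched 6 of the 10 genes, with 9 windows, and AXIN2, NKD1, ZNRF3 and LGR5 were not matched. Capitals mark GC boxes (GGGCGG), which transcription factors of the SP family bind, the cyclic AMP response element TGACGTCA, and the TCF core (CTTTG followed by AA, AT, TA or TT), each on either strand; adjoining boxes can share bases and then form 1 run of capitals.
GSK3B (chr3:120094448-120094697, minus strand): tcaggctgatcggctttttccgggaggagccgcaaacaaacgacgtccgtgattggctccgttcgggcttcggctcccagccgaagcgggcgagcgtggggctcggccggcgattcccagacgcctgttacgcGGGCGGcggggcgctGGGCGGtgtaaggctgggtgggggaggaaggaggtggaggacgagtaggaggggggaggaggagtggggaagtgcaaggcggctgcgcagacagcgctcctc
DVL1 (chr1:1349419-1349668, minus strand): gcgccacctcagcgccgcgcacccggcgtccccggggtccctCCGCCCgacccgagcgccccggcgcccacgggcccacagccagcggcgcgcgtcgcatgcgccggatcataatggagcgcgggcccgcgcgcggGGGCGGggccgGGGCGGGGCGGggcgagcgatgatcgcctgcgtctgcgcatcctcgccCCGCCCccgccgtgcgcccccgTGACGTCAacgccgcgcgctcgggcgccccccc
GSK3B held 2 GC boxes, the nearer beginning 102 bases upstream of the start, and DVL1 held 5, besides a cyclic AMP response element 33 bases upstream. A GC box stood in 42.6% of all 35116 windows of this length, and the response element in 1.65%. Neither window held a TCF core, which stood in 12.0% of all windows. These matches describe letters only.

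No feedback target among the members passed. Over their 11 probe sets the differences ran from -0.20 to 0.31, with 95% intervals between -0.42 and 0.53. At most a 1.44-fold difference in signal was within any interval. Of the 11 probe sets, 5 lay above the median signal, and detection calls were not used here. The intervals thus bound the signal of these probe sets, and not the fold of the transcript. AXIN2, a common readout of this pathway, was measured by 4 probe sets. 224498_x_at, the brightest, read 8.04, 8.06 and 8.28 in S116A and 7.85, 8.17 and 8.04 in S116D. These values overlapped (difference -0.11, 95% interval -0.34 to 0.13, limma adjusted p = 0.69), and the suffix marks a probe set that can read related sequences. On 222696_at S116A read 7.75, 7.53 and 7.67 and S116D 7.86, 8.14 and 7.88. Here the lines did not overlap, with S116D the higher, but the difference of 0.31 ± 0.09 (SE) did not pass (limma adjusted p = 0.090, unadjusted p = 0.010). The other 2 probe sets differed by 0.05 and 0.02. The change on 222696_at differed from that on the brightest by 0.42 ± 0.10 (SE; limma adjusted p = 0.033). That call ended without S116A 2, S116A 3 or any 1 of the S116D arrays (limma adjusted p 0.062 to 0.12).

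NKD1, an inhibitor that binds Dishevelled, differed little between the lines. Its brightest probe set, 229481_at, read 8.99, 9.05 and 9.05 in S116A and 9.08, 8.85 and 9.02 in S116D, and its 3 probe sets differed by -0.05, 0.04 and 0.02. The intervals for NKD1 ran from -0.24 to 0.21 at their widest. LGR5, the R-spondin receptor and stem cell marker, read 7.77, 7.85 and 7.78 in S116A and 7.94, 7.77 and 7.90 in S116D on 210393_at, with overlapping lines and a difference of 0.07 (95% interval -0.09 to 0.23). Its other probe set was dim, at 5.20 in S116A, and differed by 0.05.

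The 2 ubiquitin ligases that remove Wnt receptors did not pass either. RNF43 read 7.07, 7.00 and 7.38 in S116A and 6.92, 7.00 and 6.94 in S116D. The lowest S116A array and the highest S116D array met without crossing, and the difference of -0.20 ± 0.10 (SE) had a limma adjusted p of 0.33. ZNRF3, its homologue, was well above the median signal, at 10.17, 10.25 and 9.97 in S116A and 10.43, 10.15 and 10.08 in S116D. The ranges overlapped, and the difference was 0.09 (95% interval -0.18 to 0.35, limma adjusted p = 0.80). In ZNRF3 the arrays of the first set (10.17 to 10.43) lay above those of the second (9.97 to 10.15), and within the sets S116D differed by 0.22 and 0.14.

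Among the TCF/LEF factors, TCF7L2 and TCF7L1 were well above the median signal and LEF1 was dim. LEF1, which activates Wnt targets when β-catenin is bound, read between 6.68 and 7.12 on 221558_s_at, its brightest probe set. The 2 lowest values were S116A 1 (6.68) and S116A 2 (6.70), while S116A 3 (7.00) lay among the S116D arrays, at 6.97, 7.12 and 6.99. The difference was 0.23 ± 0.09 (SE) and did not pass (limma adjusted p = 0.20, unadjusted p = 0.034). Without S116A 3 it was 0.34 (limma adjusted p = 0.026), so that the call depends on this array. The other LEF1 probe sets differed by -0.02 and -0.04.

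TCF7L2, the TCF factor of many epithelia, had 7 probe sets, and none passed. The brightest, 212761_at, read 12.87, 12.99 and 12.78 in S116A and 12.78, 12.94 and 12.72 in S116D, brighter than 97.8% of all probe sets by its mean. The lines overlapped and differed by -0.07 (95% interval -0.27 to 0.13). 212762_s_at showed the largest difference, -0.50 (95% interval -1.15 to 0.15, limma adjusted p = 0.41). Its values were 10.92, 10.99 and 10.01 in S116A and 10.62, 10.00 and 9.81 in S116D, so that S116A 3 was as low as the lower S116D arrays and S116D 1 nearer the higher S116A arrays. 216511_s_at was alike, at 10.59, 10.43 and 9.77 against 10.13, 9.80 and 9.80 (difference -0.35, limma adjusted p = 0.42). Without S116A 3 its difference was -0.60, with a limma adjusted p of 0.025.

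TCF7L1, a TCF factor that mostly represses, varied in the same way on its 1 probe set, 221016_s_at. It read 10.45, 10.35 and 9.85 in S116A and 10.61, 9.79 and 9.80 in S116D. The ranges overlapped almost wholly, and the difference of -0.15 had a 95% interval from -0.69 to 0.39. In the fit with the set as a block it was 0.075 (limma adjusted p = 0.68). The sets of arrays, unlike the lines, did not overlap: the first set read 10.35 to 10.61 and the second 9.79 to 9.85.

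The same split held for 4 of the 7 TCF7L2 probe sets. On 212762_s_at the first set read 10.62 to 10.99 and the second 9.81 to 10.01, a gap also seen on 216511_s_at (10.13 to 10.59 against 9.77 to 9.80), 216037_x_at (10.73 to 10.94 against 10.38 to 10.47) and 216035_x_at (10.83 to 11.08 against 10.38 to 10.63). The brightest TCF7L2 probe set, 212759_s_at and 236094_at did not separate the sets. The 4 that did are of the types _s_at and _x_at, which can match several transcripts or related sequences, so they may share sequence with each other. Over all members, 9 of 28 probe sets (32.1%) separated the sets, the others being those of ZNRF3 and TCF7L1, LEF1 221558_s_at, GSK3B 209945_s_at and NKD1 232203_at, against 18.6% of all probe sets. The sets were found in these same data. The GAPDH ratio given above moved with them, while that of ACTB overlapped between the sets. Whether RNA quality has a part in the spread of the TCF genes was not tested.

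**Figure D3:**
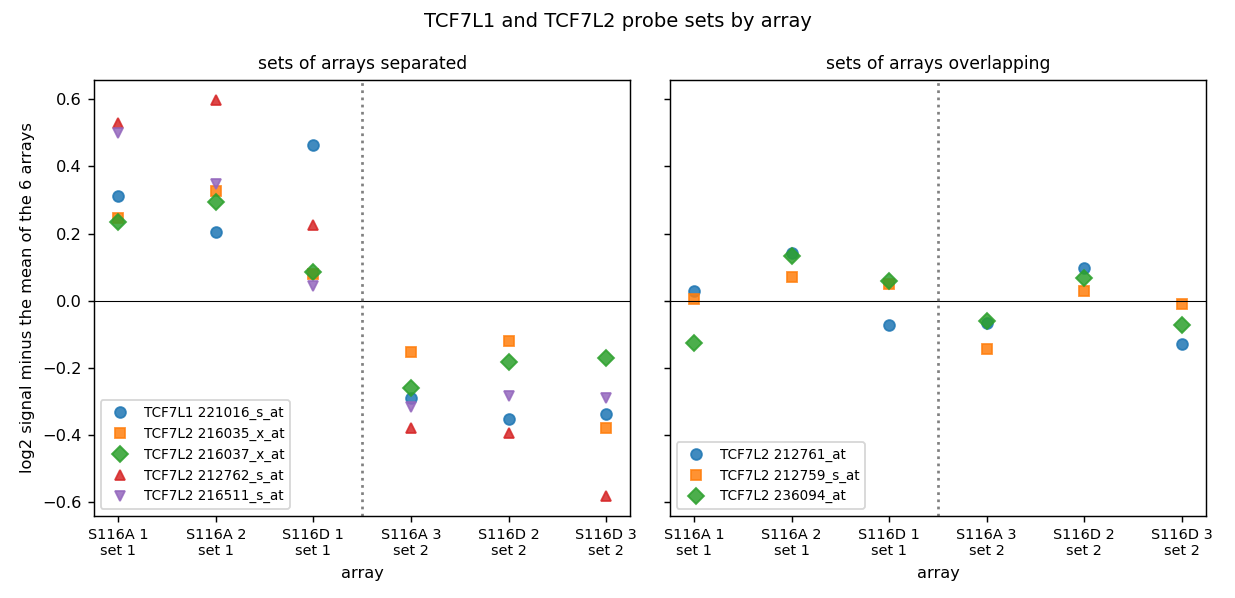
Log2 signal of the TCF7L1 and TCF7L2 probe sets on each array (x axis, ordered by the sets of arrays, which the dotted line divides), after subtraction of the probe set's mean over the 6 arrays (y axis). In the left panel 5 probe sets are above 0 on S116A 1, S116A 2 and S116D 1 and below 0 on the other arrays; in the right panel 3 TCF7L2 probe sets show no such gap.

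Of 3 start sites listed for TCF7L2, 1 had a window with a TCF core, printed here because it is the only one of the 9 member windows that holds one; the core begins 133 bases upstream of the start.
TCF7L2 (chr10:113126383-113126632, plus strand): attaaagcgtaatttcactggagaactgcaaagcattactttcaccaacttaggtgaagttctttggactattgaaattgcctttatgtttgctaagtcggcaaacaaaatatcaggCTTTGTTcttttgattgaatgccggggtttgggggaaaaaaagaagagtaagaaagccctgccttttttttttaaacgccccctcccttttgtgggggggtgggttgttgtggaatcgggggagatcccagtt
The window of the most upstream TCF7L2 start held 5 GC boxes and no TCF core. Which start the probe sets read was not examined.

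Other genes of the pathway were taken from 4 lists, and gave 22 called probe sets among 145 (15.2%, against 8.55% of all probe sets). Of the 145, 89 lay above the median signal. In a fit on the probe sets above the median signal, 4423 of 27306 passed in all, and 3 rises and 14 falls passed among these 89. The shares of all probe sets given here and below do not allow for the brightness of the lists. At the receptors, including the co-receptors LRP5 and LRP6, LGR4, LGR6, the R-spondins and the KREMEN genes, none of 20 probe sets passed by limma, and 2 had an unadjusted p under 0.05 (LGR6, -0.24, and RSPO4, -0.17, named after their values were seen). In the destruction complex and its partners, 5 of 50 probe sets rose and 1 fell (12% in either direction, against 8.55% of all probe sets). The rises were 2 of 3 probe sets of CTNNB1, which encodes β-catenin (1.08 and 0.50), FRAT1, a GSK3 binding protein that keeps the kinase from axin (0.47, from 7.66 to 8.13), CSNK1A1, the priming kinase of β-catenin, on 1 of 13 probe sets (0.43), and TNKS2 on 1 of 4 (0.30, named after its value was seen). The called CSNK1A1 probe set, 243338_at, was dim, at 6.48 in S116A and 6.91 in S116D. The brightest CSNK1A1 probe sets, 213860_x_at and 208865_at, differed by 0.11 and 0.03 and did not pass, while 12 of the 13 differences were positive. Without S116D 2 the CSNK1A1 call ended (limma adjusted p = 0.056), and without any 1 array the TNKS2 call ended (limma adjusted p 0.082 to 0.12). The TNKS2 call also ended under quantile normalization (limma adjusted p = 0.058) and median centring (limma adjusted p = 0.060). The brightest TNKS2 probe set, 218228_s_at, went the other way, at 10.46 in S116A and 10.34 in S116D, and did not pass (difference -0.12, limma adjusted p = 0.60). The fall was that of TNKS, a tankyrase that marks axin for destruction, on 1 of 4 probe sets (from 10.47 to 9.68). FRAT2, listed with FRAT1, had a difference of the other sign that did not pass (-0.25, from 9.67 to 9.41, limma adjusted p = 0.21). APC and AXIN1, the scaffolds of the complex, did not pass on any of their 6 probe sets. APC differed by 0.31 on 203525_s_at, where the lines did not overlap (limma adjusted p = 0.092), and by 0.005 to 0.12 on its others. AXIN1 differed by -0.24 on overlapping lines (limma adjusted p = 0.25).

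Of 41 probe sets of the nuclear TCF complex, 30 of them above the median signal, 9 fell (22%, against 4.19% of all probe sets) and none rose. They belonged to 3 corepressor genes. CTBP2 fell on 5 of 6 probe sets, most on 201218_at, from 12.92, 12.85 and 12.65 in S116A to 12.16, 11.90 and 11.96 in S116D (1.73-fold, limma adjusted p = 0.0020). TLE1, a Groucho corepressor that binds TCF factors, fell on 1 of 5, from 11.31, 11.26 and 10.94 to 10.32, 10.37 and 10.10 (1.87-fold, limma adjusted p = 0.0027), and its other 4 probe sets had negative differences of -0.14 to -0.54 that did not pass. TLE3 fell on 3 of 4 probe sets, by 0.38 to 0.56, and all 3 calls ended without S116A 1, without S116D 2 or without S116D 3 (limma adjusted p 0.10 to 0.16). The call on TLE3 206472_s_at also ended with eBayes without trend (limma adjusted p = 0.054). TLE2, of the same family, had positive differences that did not pass, of 0.33 on 40837_at, where the lines did not overlap (limma adjusted p = 0.16), and of 0.25 on 204431_at (limma adjusted p = 0.36). No probe set of BCL9, BCL9L, PYGO1 or PYGO2, the coactivators that β-catenin recruits, passed. TCF7 was not among the probe sets with 1 gene.

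Of 34 probe sets of other genes induced by Wnt signalling, 21 of them above the median signal, 7 fell (20.6%, against 4.19% of all probe sets) and none rose. TNFRSF19, a receptor of the tumour necrosis factor family, fell most on 227812_at, from 8.44, 8.69 and 8.75 in S116A to 6.21, 6.11 and 6.33 in S116D (limma adjusted p = 6.3e-06). The S116D values lay within the range of the leukocyte gene PTPRC, whose probe sets had line means from 4.71 to 7.05. The leukocyte gene CD3E, however, read 9.52 in S116A and 9.57 in S116D, so these genes set no single floor. Detection calls were not used here, and no fold is given for TNFRSF19. Its other 2 probe sets differed by -0.15 and -0.04 and did not pass. The others were DKK1, BMP4, CD44 on 1 of 13 probe sets, and, named after their values were seen, MYC and CCND1. DKK1 went from 13.45 in S116A to 12.01 in S116D (difference -1.44, limma adjusted p = 2.4e-05), and BMP4 from 9.84 to 8.49 (-1.35, limma adjusted p = 0.00034). CD44 differed by -0.50 on the called probe set, MYC by -0.78, and CCND1 by -0.53 and -0.35. NKD2, NOTUM, APCDD1 and ASCL2, which are also used as readouts of the pathway, did not pass, at differences between -0.10 and 0.00057. SP5, a transcription factor induced by Wnt signalling, and BAMBI, a pseudoreceptor, did not pass either, but lay further from 0: SP5 differed by -0.36 (limma adjusted p = 0.080) and BAMBI by -0.31 (limma adjusted p = 0.15), and on both the lines did not overlap. The median differences of the 4 lists in the order given were 0.01, 0.03, -0.11 and -0.08. The members and these lists were chosen with earlier results known, and the counts describe them without a test of the lists.

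Part of these pathway counts depended on single arrays. The 17 falls over the 4 lists became 10 without S116A 1 or S116A 2 and 9 without S116D 2 or S116D 3, and the 5 rises became 3 without S116D 2. TNKS2, each TLE3 probe set, both CCND1 probe sets, MYC, CSNK1A1 and 3 of the 5 CTBP2 probe sets lost their call without at least 1 array, at limma adjusted p between 0.051 and 0.16. CTNNB1, FRAT1, TNKS, TLE1, TNFRSF19, DKK1, BMP4, CD44 and the CTBP2 probe sets 201218_at and 201219_at kept theirs without any 1 array.

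**Figure D4:**
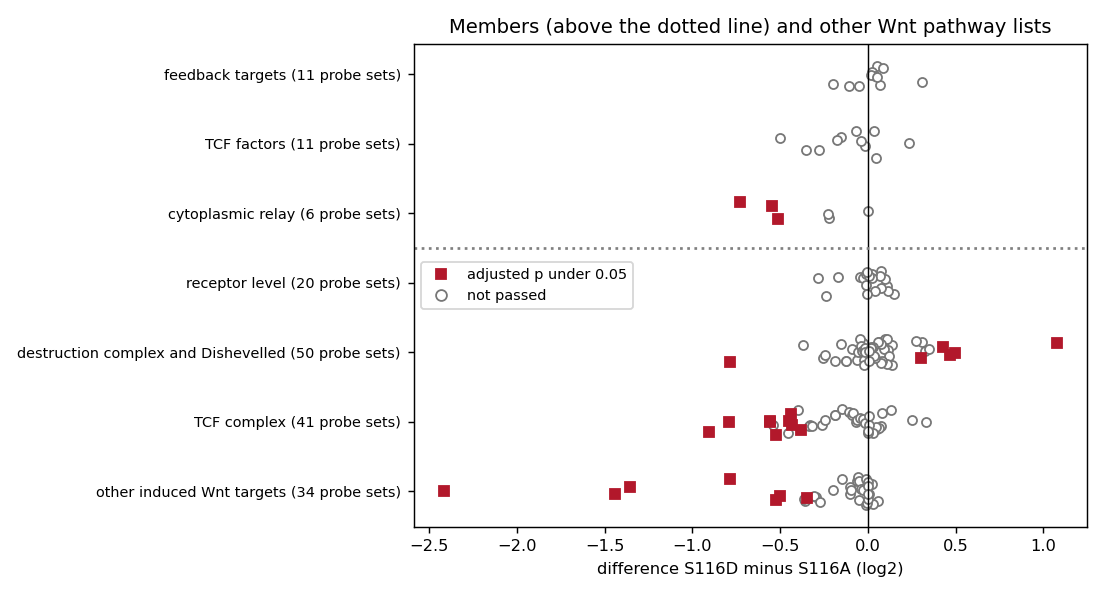
Difference S116D minus S116A on the log2 scale (x axis) for each probe set of the members, by role (3 upper rows), and of the 4 other lists of Wnt pathway genes (4 lower rows); vertical scatter within a row only separates the points. Filled squares mark an adjusted p under 0.05: 3 of 28 among the members, none in the receptor row, 6 in the destruction complex row, 9 in the TCF complex row and 7 in the row of other targets.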

How the data were processed

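The 6 arrays (3 S116A, 3 S116D, grouped by their titles) were read as the log2 signal per probe set that the authors deposited. MAS5 and RMA are named per the submitters' processing notes; each role, version and setting, and the log base: not given in the sources used here. Precision is limited by the number of arrays. Control probe sets (62 of 54675) were left out; of 54613 tested, 41091 had 1 gene in GEO's platform annotation, 1801 several and 11721 none, and 41037 matched RefSeq.

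S116D was set against S116A in limma 3.58.1 under R 4.3.3 (lmFit, then eBayes with an intensity trend, Benjamini-Hochberg over all probe sets, threshold 0.05), after the procedure was tested on simulated data. There it recovered 53.7% of changes of 0.5 log2, 91% of 1 log2 and 100% of 2 log2, and 4.12% of its calls were false. A difference near 0.5 that did not pass may thus be a missed change. An exact permutation test of 3 against 3 arrays cannot go below 0.1 and was not used. Probe sets of a gene were compared by fitting each array's difference from the brightest.

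The members, lists and alternatives were chosen with earlier results of these data known. Named were all members, up to 4 genes with a called probe set per other list, by smallest adjusted p, CTNNB1, and the 3 genes nearest in profile to GSK3B and to DVL1. The alternatives covered scaling (quantile, median), a fit on brighter, on unshared or on 1 probe set per gene, no trend, array weights, a replicate block, each array left out and, chosen after seeing the data, the set of arrays as block.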

Additional observations from a re-analysis of the deposited data

How the results depend on the processing

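The 3 falls among the members (GSK3B 226191_at and 226183_at, DVL1) passed in every alternative that held the probe set. All probe sets called, 4672, became 2833 over unshared probe sets, 2407 with 1 probe set per gene, 8099 when the set of arrays was a block and 2608 to 4674 without 1 array. With the replicate number as a block they were 7340, the falls over the other Wnt lists 26, and GSK3B 242336_at passed (limma adjusted p = 0.046); deviations of same-numbered arrays correlated at 0.45, -0.04 and 0.44, not every array matched its own number best, and the arrays share only a number. Members called higher were 0 to 1 without 1 array, the 1 being LEF1 221558_s_at without S116A 3. Rises over the other Wnt lists, 5, were 3 above the median signal, 2 with 1 probe set per gene, 10 with the sets as a block and 3 to 5 without 1 array. Falls, 17, were 10 over unshared probe sets, 7 with 1 probe set per gene and 9 to 18 without 1 array. Member pairs called, 2, were 0 to 2 without 1 array. The sign turned with array weights for LEF1 221557_s_at (0.0073) and GSK3B 240562_at (0.018), and with the sets as a block for TCF7L1 (0.075) and for TCF7L2 216037_x_at against 212761_at (0.0064). Without 1 array it turned for AXIN2 224176_s_at (-0.027 to 0.15) and 222695_s_at (-0.010 to 0.052), NKD1 229481_at (-0.098 to 0.017), 232203_at (-0.010 to 0.080) and 1553115_at (-0.025 to 0.059), ZNRF3 (-0.018 to 0.16), LGR5 213880_at (-0.049 to 0.12), LEF1 221557_s_at (-0.063 to 0.070) and 210948_s_at (-0.090 to 0.0059), TCF7L2 212759_s_at (-0.013 to 0.094) and 236094_at (-0.019 to 0.11), GSK3B 240562_at (-0.047 to 0.032), and the pairs LGR5 213880_at against 210393_at (-0.17 to 0.065) and TCF7L2 216037_x_at against 212761_at (-0.23 to 0.0033). None of these reversed differences passed. The fits on unshared or above-median probe sets and on 1 probe set per gene test fewer probe sets; otherwise the cause was not tested.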
